A study of Oryctolagus cuniculus with 8 samples.

Results

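The ABCB pumps are a subfamily of the ATP-binding cassette (ABC) transporters, membrane proteins that use ATP to move substrates across a membrane. Of the 20922 gene entries in the deposited table, those named ABCB1, ABCB4, ABCB6, ABCB8 and ABCB10 were taken by their names alone. All 5 were found, and all 5 passed the filter on low reads that left 10012 genes for testing. ABCB9 is not analysed here, nor is ABCG2, another dye exporter. ABCB5 had 7 SP and 4 NSP reads in all and ABCB11 had 0 SP and 62 NSP reads, and both were too low for testing.

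ABCB1 encodes P-glycoprotein, a broad-spectrum efflux pump of the plasma membrane that expels many hydrophobic drugs and dyes, Hoechst 33342 among them. It is known from blood-brain barrier endothelium, gut, liver and kidney, and also from T and NK lymphocytes. ABCB4, its close relative, moves phosphatidylcholine across the bile-facing membrane of hepatocytes. ABCB6, ABCB8 and ABCB10 are shorter proteins that pair to form a pump and are linked to mitochondria, porphyrins, heme and iron.

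The libraries came from limbal epithelial cells of New Zealand white rabbits. Staining with Hoechst 33342 was used to sort them into side population (SP) cells, which keep little dye, and non-side-population (NSP) cells, with 4 libraries each, read on an Ion Proton instrument. The labels give no genotype, drug treatment, age or sex, and both groups share strain, tissue and dye. They do not say whether libraries came from separate animals or from pools, so each p-value rests on how far these libraries differ within a group, and that spread may be technical. The columns name the group but not the sample, so replicate numbers below follow the column order and pair nothing between groups.

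The SP libraries held 15553295 to 18931836 exon reads and the NSP libraries 20445565 to 23529101. Levels are CPM, a gene's reads scaled to a common library total, and are given as mean ± SD with n = 4 libraries per group. Levels of different genes are compared as CPM per kilobase of exon. Fold changes are log2 ratios of SP over NSP ± SE from limma-voom, with p-values adjusted over all 10012 genes by Benjamini-Hochberg and called below 0.05. Of these genes, 17.7% were called higher and 13.0% lower in SP, and the median log2 fold change was 0.12. Of all calls 57.7% were in the higher direction, against 51% with median-ratio and 46.9% with upper-quartile scaling, which moved the median gene by -0.12 and -0.18. Limbal and corneal epithelial markers, the labelled cell type, summed to between 5093 and 14920 CPM in SP and between 44111 and 78047 CPM in NSP, and 22 of 26 tested fell in SP. Markers of endothelium, T and NK cells and melanocytes were higher in SP, with values given beside ABCB1.

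Of the 5 ABCB pumps 1, ABCB1, passed the threshold as higher in SP, beside 17.7% of all tested genes. Its RNA rose 139-fold in SP (95% interval 75.9 to 253), and it was the most abundant tested ABC transporter per kilobase there. In the 4 SP libraries ABCB1 stood at 769, 1163, 2060 and 1133 CPM. In the 4 NSP libraries it stood at 8.28, 11.4, 8.18 and 7.2 CPM. The lowest SP library was far above the highest NSP library, and SP replicate 3 was the highest of all. The groups did not overlap, as was the case in the higher direction for 18.8% of tested genes.

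Behind these levels lay 14144, 22506, 38317 and 16274 ABCB1 reads in SP and 184, 246, 164 and 149 in NSP, so that counting error was small beside the spread between libraries. The means were 1281 ± 549 CPM in SP and 8.75 ± 1.8 CPM in NSP. The log2 fold change was 7.12 ± 0.39 (limma-voom adjusted p = 1.46e-05). With each library left out in turn it lay between 6.86 and 7.33 and was called in all 8 fits. In the authors' deposited table the EDGE test gave a 133-fold higher ABCB1 level in SP with a corrected p of 6.45e-43. In these bulk libraries, a larger share of cells that express a gene and more RNA of it per cell cannot be told apart.

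Among the 14625 entries with a length and a CPM per kilobase, ABCB1 ranked between 211 and 466 in the SP libraries. In the NSP libraries it ranked between 6944 and 7517, with between 47.5% and 51.4% of entries above it. ABCB1 was detected in every NSP library, and its place near the middle of the entries counts entries with no read. In NSP replicate 2, ABCB4 had no read and ranked 10943, so the entries from that rank on had none. Among the entries with reads there, ABCB1 at rank 6944 stood below the middle.

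**Figure D1:**
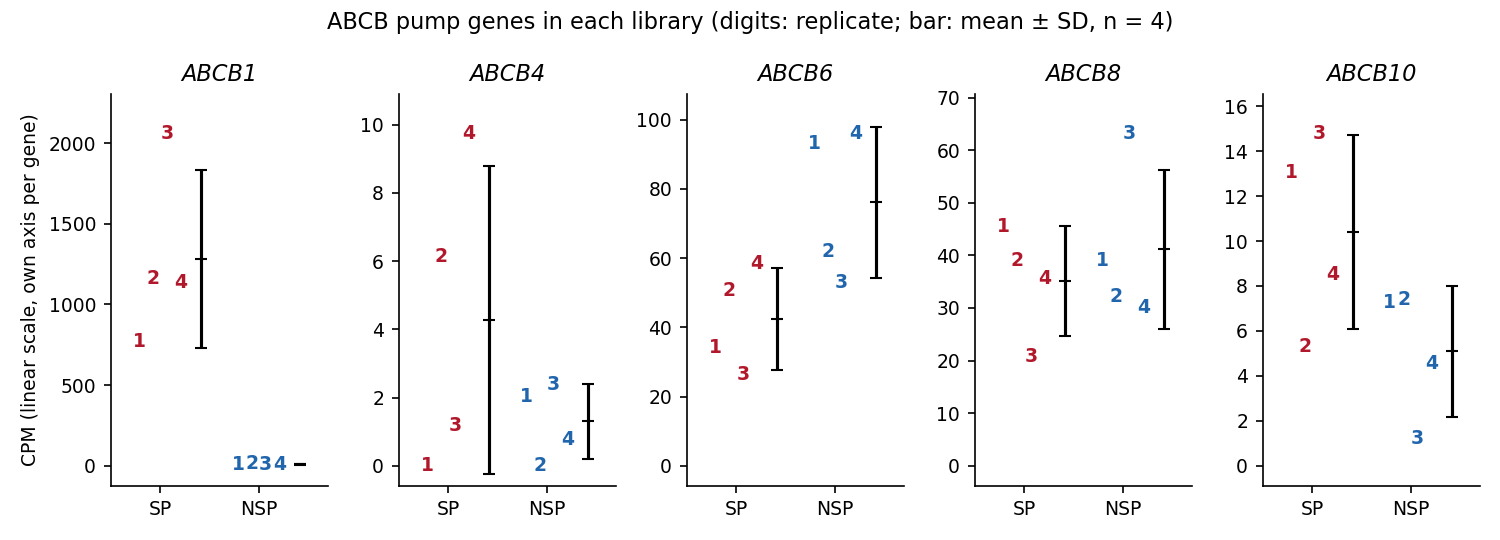
CPM of the 5 ABCB pump genes in each library, each gene on its own linear axis, with digits for the replicate and black bars for mean ± SD (n = 4 per group). ABCB1 lies between 769 and 2060 CPM in SP and between 7.2 and 11.4 CPM in NSP, while the SP and NSP digits of the other members overlap.

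Per kilobase, the order of the members in SP was ABCB1 at 280 ± 120, ABCB6 at 14 ± 4.87, ABCB8 at 8.07 ± 2.4, ABCB10 at 3.07 ± 1.27 and ABCB4 at 1.08 ± 1.14 CPM per kilobase. The libraries of ABCB6 and ABCB8 overlapped, as did those of ABCB10 and ABCB4, while the other neighbours in this order did not. In NSP the order was ABCB6 at 25.2 ± 7.22, ABCB8 at 9.44 ± 3.49, ABCB1 at 1.91 ± 0.394, ABCB10 at 1.5 ± 0.858 and ABCB4 at 0.328 ± 0.28 CPM per kilobase. There ABCB1 and ABCB10 overlapped, and so did ABCB10 and ABCB4. ABCB1 therefore moved from the third place to the first, and the other 4 kept their order.

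The level of ABCB1 among all ABC transporters was described over the 27 tested genes of the family, summed per kilobase. ABCB1 made up 28.2%, 35.8%, 48.5% and 30.9% of that sum in SP replicates 1 to 4. In NSP it made up 0.586%, 0.777%, 0.475% and 0.428%, which placed it 18th by its mean share. The leading gene in NSP was ABCF2, a family member without membrane domains, with a mean share of 20.4%, followed by TAP1, a peptide pump of antigen presentation, with 17.2%. The other 26 transporters summed to between 428 and 554 CPM per kilobase in SP and between 307 and 374 in NSP.

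**Figure D2:**
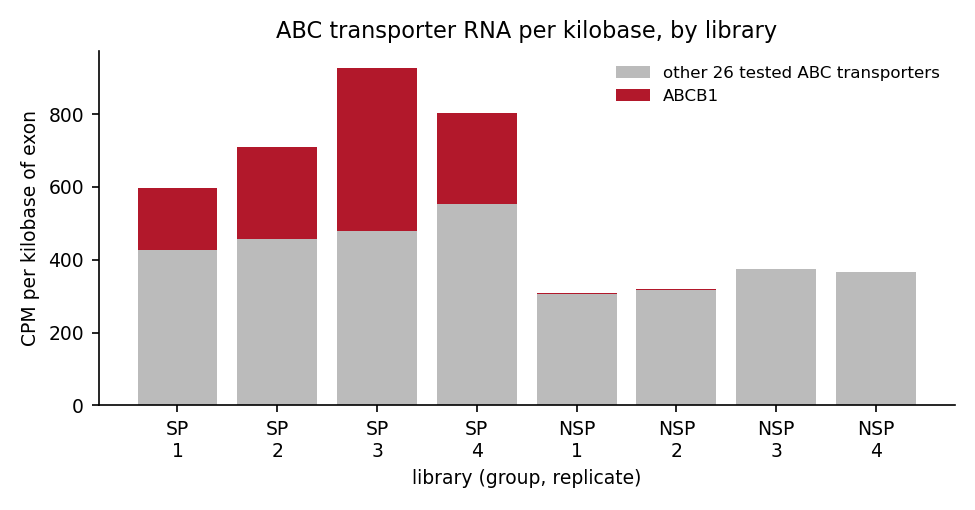
Stacked bars of CPM per kilobase in each library, with ABCB1 in red and the sum of the other 26 tested ABC transporters in grey. ABCB1 takes 28.2% to 48.5% of the bar in SP and under 1% in NSP.

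Of the 48 ABC transporters listed, 33 had a usable entry and 27 were tested. In SP 6 of these (22.2%) were higher and 3 (11.1%) lower, shares near the 17.7% and 13.0% of all tested genes, and the median log2 fold change was 0.36. ABCC4, an exporter of cyclic nucleotides and prostaglandins, rose by 1.69 ± 0.39 (limma-voom adjusted p = 0.00838). TAP1 rose by 1.58 ± 0.32 (limma-voom adjusted p = 0.00411), while its partner TAP2 had a log2 fold change of 1.40 ± 0.56 that missed the threshold (adjusted p = 0.0833).

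The 3 other transporters that rose were thinly covered. ABCA8 had 442 SP reads and 4 NSP reads, a log2 fold change of 6.37 ± 1.57 and a limma-voom adjusted p of 0.0118. ABCC9, the sulfonylurea receptor subunit of vascular potassium channels and a mural cell marker, had 302 and 10 reads (4.91 ± 1.37, adjusted p = 0.0209). ABCA6 had 140 and 18 reads (2.99 ± 0.76, adjusted p = 0.0138). Each of these calls was lost without 1 NSP library: ABCA8 without NSP replicate 1 or 2 (adjusted p = 0.0612 and 0.0513), ABCA6 without NSP replicate 1 (0.0524), and ABCC9 without NSP replicate 2, 3 or 4 (0.0767, 0.0505 and 0.0714).

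Among the transporters that fell, ABCA12, the lipid loader of keratinocyte lamellar granules, stood at -4.88 ± 1.15 (limma-voom adjusted p = 0.00993). The peroxisomal fatty acid importer ABCD2 stood at -3.08 ± 0.45 (adjusted p = 0.000784). ABCA1, which hands cholesterol to apolipoproteins, stood at -1.48 ± 0.24 (adjusted p = 0.0014). All 3 falls were called in each fit without 1 library, but the count of falling transporters was 7 without SP replicate 4 and 5 without NSP replicate 1.

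**Figure D3:**
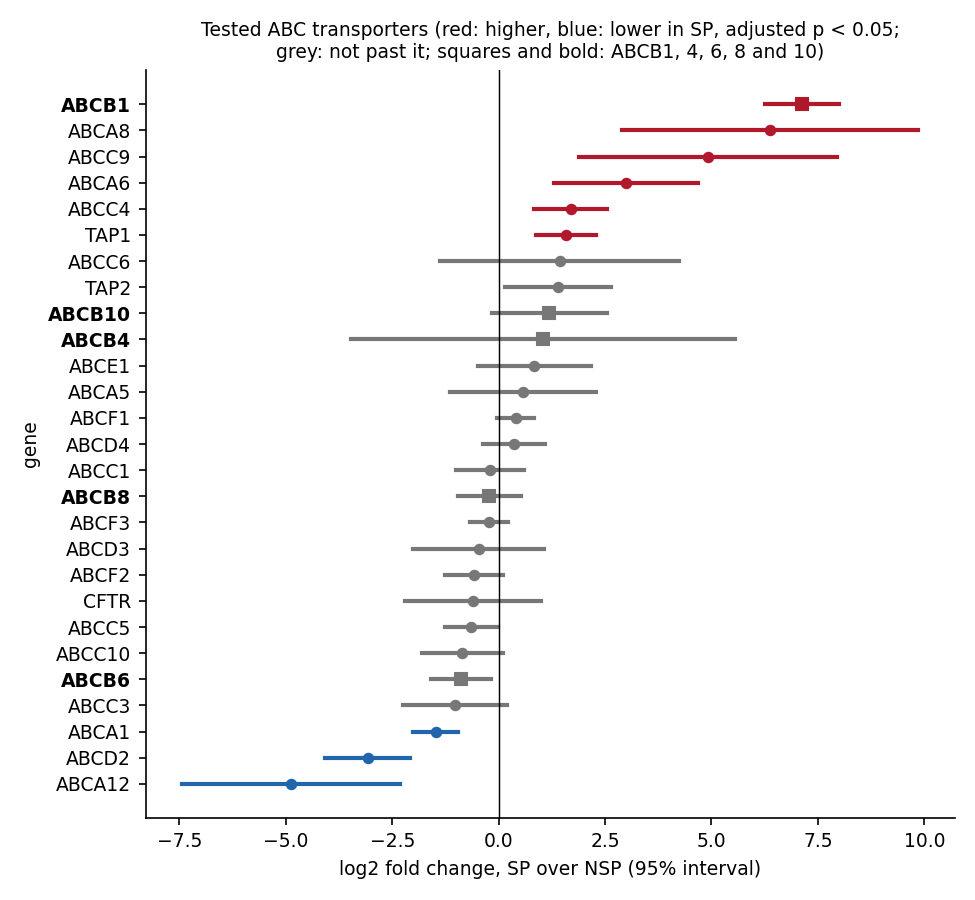
Log2 fold change, SP over NSP, with its 95% interval for the 27 tested ABC transporters, in red where higher and in blue where lower past the threshold; squares mark the ABCB pumps. ABCB1 lies at 7.12 with an interval from 6.25 to 7.99, while the intervals of ABCB4, ABCB8 and ABCB10 include 0.

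The 4 SP libraries differed from each other in marker RNA, and the level of ABCB1 was followed across them. Of the endothelial markers 20 of 22 tested rose in SP. Their sum was 2456, 8035, 9687 and 22915 CPM in SP replicates 1 to 4 and between 30.4 and 38.6 CPM in NSP. SP replicate 4 was thus the highest and SP replicate 1 the lowest, a 9.33-fold range. VWF, the von Willebrand factor, had 582, 2275, 2538 and 7544 CPM in these libraries, and PECAM1, a junctional adhesion protein, had 222, 654, 676 and 1195 CPM. ABCB1 had its lowest level in the same library as the endothelial sum, but its highest in another.

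Of the T and NK cell markers 19 of 20 tested rose in SP, and their sum was 2261, 6043, 9614 and 3719 CPM in SP replicates 1 to 4. In NSP the sum lay between 13.2 and 38.5 CPM, and CD8B, CD96, GZMK, GZMH, IL7R and CXCR6 had no read there. The highest and lowest SP libraries of this sum were those of ABCB1. CD6, a receptor of T cells, had 56.5, 126, 182 and 89 CPM in SP, and PRF1, the pore former of cytotoxic granules, had 48.9, 233, 492 and 68.9 CPM. ABCB1 spread 2.68-fold over the SP libraries, less than the 4.25-fold of the sum and close to the median of 2.6-fold over the tested genes with reads in all 4.

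Melanocyte markers were higher in SP for 11 of 13 tested, and their sum was 14151, 2272, 8739 and 2844 CPM in SP replicates 1 to 4 against 251 to 445 CPM in NSP. SP replicate 1, the lowest in ABCB1, was the highest in this sum. TYRP1, a melanosome enzyme, had 7790, 1065, 4407 and 919 CPM, and PMEL, a melanosome fibril protein, had 3284, 474, 2382 and 1231 CPM. Pan-leukocyte markers rose for 12 of 13 tested, with sums of 6312 to 12715 CPM in SP and 402 to 1143 CPM in NSP. Stromal and mural markers rose for 9 of 15, with sums of 747 to 4767 and 456 to 795 CPM, and 1 was lower. That gene, the mural marker RGS5, had 0.598, 0.0517, 0 and 0 CPM in SP. Its log2 fold change lay between -4.95 and -3.43 with 1 library left out, called in 4 of the 8 fits. Myeloid markers rose for 8 of 11, with sums of 494 to 708 CPM in SP and 63.5 to 150 CPM in NSP. The part of these cell types in the ABCB1 difference was not tested.

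Gene by gene, SP replicate 3, where ABCB1 was highest, was also the highest SP library for 16 of 20 T and NK markers and for 12 of 13 pan-leukocyte markers. It was the highest for 5 of 11 myeloid and 6 of 15 stromal and mural markers. For endothelial markers it was the highest in 1 of 22, EMCN, and for melanocyte markers in 1 of 13. For limbal and corneal epithelial markers it was the highest in 0 of 26, and their sum was lowest there at 5093 CPM. Over all tested genes SP replicate 3 was the highest in 24.0%. SP replicate 1, where ABCB1 was lowest, was the lowest for 22 of 22 endothelial, 13 of 20 T and NK, 3 of 13 pan-leukocyte and 0 of 13 melanocyte markers, against 30.1% of all tested genes. The pan-leukocyte sum was lowest in SP replicate 2.

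Likeness of shape was measured as the root mean square difference of log2 CPM (0.5 added), each gene centred on its own mean, over the 4 SP libraries; 0 is the same shape. The median difference to ABCB1 was 0.537 for T and NK markers and 0.545 for pan-leukocyte markers. It was 1.06 for endothelial and 1.36 for melanocyte markers. Over all tested genes it was 0.698. These are descriptions over 4 points that share libraries, and no test was made of them. Of 94 genes in 6 marker lists, EMCN, an endothelial sialomucin, was nearest at 0.124, with 127, 229, 388 and 238 CPM in SP. It was followed by the fibrillar collagen gene COL1A2 (0.155), the myeloid factor SPI1 (0.171), the leukocyte adaptor HCLS1 (0.2) and CD6 (0.209). The nearest genes thus came from the endothelial, stromal, myeloid, pan-leukocyte and T and NK lists.

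The ratio of ABCB1 to each marker sum was also taken, since it can be formed in both groups. Per 1000 CPM of the T and NK sum, ABCB1 had 340, 192, 214 and 305 CPM in SP and 226, 857, 213 and 227 CPM in NSP, with NSP replicate 2 alone outside the SP range. That overlap rested on SH2D1A, a signalling adaptor of lymphocytes whose log2 fold change was -1.14, and which made up 71.9% to 84.4% of the sum in NSP. With SH2D1A left out, a choice made after its values were seen, the ratio was 193 to 342 in SP and 810 to 3324 in NSP, with no overlap. Per 1000 CPM of the endothelial sum it had 313, 145, 213 and 49.4 CPM in SP and 239, 294, 269 and 191 CPM in NSP, all within the SP range. This too rested on few genes: ESAM, ECSCR and RAMP2, each called higher in SP, made up 72.3% to 80.7% of the sum in NSP and 5.76% to 6.98% in SP. With these 3 left out, again after their values were seen, the ratio was 52.7 to 332 in SP and 753 to 1528 in NSP. In both lists the genes left out held most of the NSP sum, so a higher NSP ratio followed from the choice. The NSP sums that remained were 3.42 to 8.89 CPM for T and NK and 7.43 to 9.58 CPM for endothelial markers. Per 1000 CPM of the melanocyte sum ABCB1 had 54.3, 512, 236 and 398 CPM in SP and between 16.2 and 32.6 CPM in NSP, with no overlap. Within SP the ratios to the whole sums spread 1.77-fold, 6.33-fold and 9.42-fold in turn. Per 1000 CPM of the limbal and corneal epithelial sum, ABCB1 had between 64 and 405 CPM in SP and between 0.106 and 0.187 CPM in NSP.

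**Figure D4:**
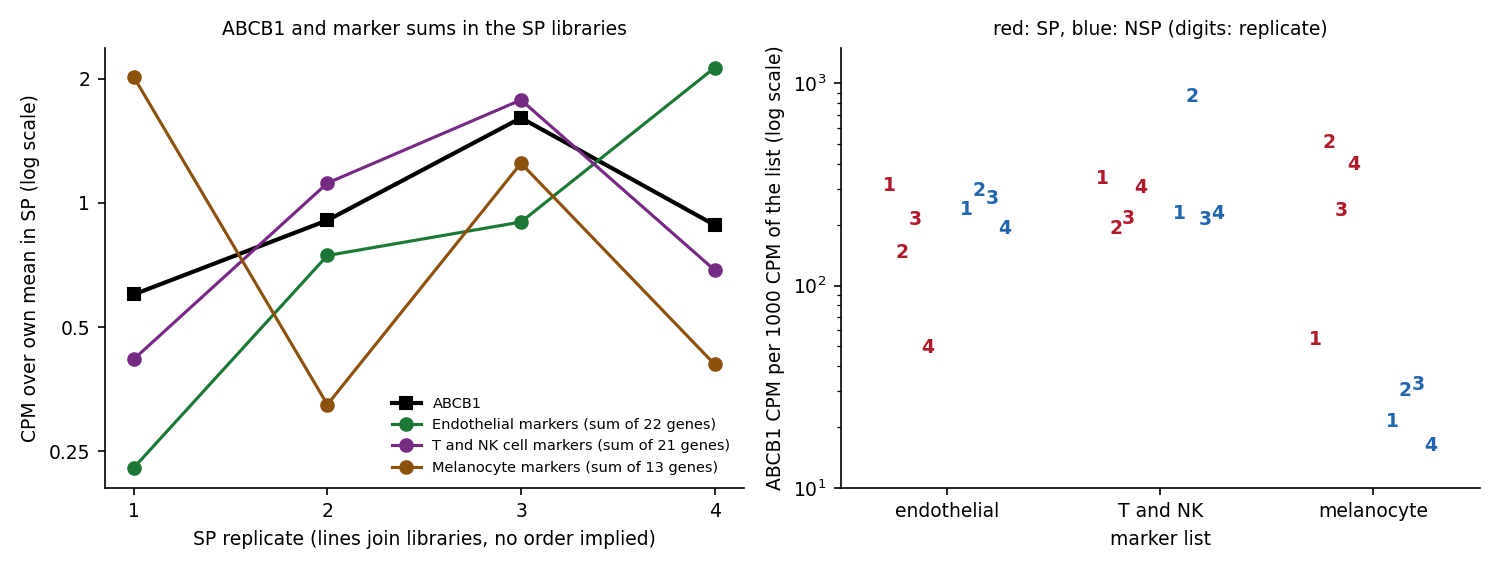
Left, CPM of ABCB1 and of the endothelial, T and NK and melanocyte marker sums in the 4 SP libraries, each over its own SP mean on a log axis; the lines join libraries that have no order. Right, ABCB1 CPM per 1000 CPM of each marker sum on a log axis, with digits for the replicate. SP and NSP share a range for the endothelial list and lie apart for the melanocyte list. With ESAM, ECSCR and RAMP2 left out of the endothelial list they share none. That choice followed their values and by itself raises the NSP ratio.

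Over all 8 libraries, the genes nearest to ABCB1 among 8578 with a complete name were ELTD1 at 0.241, ENTPD1 at 0.339, CD27 at 0.363, RHOH at 0.396 and NCR3 at 0.4. ELTD1 had 29.4, 66.1, 93.8 and 54.4 CPM in SP and no read in NSP. ENTPD1, an ectonucleotidase, had 24.3, 58.7, 86.2 and 79.5 CPM in SP and 4 NSP reads in all. CD27, a receptor of lymphocytes, had 31.8, 92.2, 114 and 42.2 CPM in SP and 2 NSP reads. At so few NSP reads the difference to ABCB1 rests on the 0.5 CPM added.

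Known regulators and anchors of P-glycoprotein were counted as a list of 28, of which 21 were tested. In SP 3 (14.3%) were higher and 2 (9.52%) lower, near the shares of all tested genes, with a median log2 fold change of 0.08. HIF1A, the oxygen-regulated transcription factor, rose by 1.83 ± 0.34 (limma-voom adjusted p = 0.00309), from 150 ± 25.2 CPM in NSP to 583 ± 294 in SP. CAV1, the coat protein of caveolae, where P-glycoprotein can reside, rose by 2.12 ± 0.35 (adjusted p = 0.00162). EGR1, an immediate early factor, fell by 1.60 ± 0.36 (adjusted p = 0.00739). NR1I2, the xenobiotic receptor PXR, had no read in any library.

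The ERM proteins tie P-glycoprotein to the actin cortex, and they went in different directions. Moesin, MSN, rose by 1.19 ± 0.33 (limma-voom adjusted p = 0.0193), a call lost without SP replicate 4 (0.058) or NSP replicate 1 (0.0781). Ezrin, EZR, fell by 1.62 ± 0.33 (adjusted p = 0.00491), from 2581 ± 128 CPM in NSP to 917 ± 426 in SP. Radixin, RDX, had a log2 fold change of 0.80 ± 0.35 and missed the threshold (adjusted p = 0.108). Moesin is the ERM protein typical of endothelium and leukocytes, and ezrin that of epithelium. The part of the cell mix in the changes of MSN and EZR was not tested.

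The barrier endothelium list, where P-glycoprotein is best known, had 10 tested genes. In SP 4 (40.0%) rose and 3 (30.0%) fell, beside 17.7% and 13.0% of all tested genes. LEF1 (8.10), SLC38A5 (6.39), APCDD1 (5.85) and LRP8 (1.73) were the genes that rose, by their log2 fold changes. The glucose carrier SLC2A1 (-2.40), the lipid carrier MFSD2A (-2.43) and the monocarboxylate carrier SLC16A1 (-1.27) were lower. The list summed to between 901 and 1275 CPM in SP and between 1758 and 3189 CPM in NSP. In NSP the endothelial markers summed to only 30.4 to 38.6 CPM, so this list does not by itself measure endothelium here.

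ABCB4 was low in both groups. In SP it had 0, 119, 22 and 140 reads, or 0, 6.15, 1.18 and 9.75 CPM, and in NSP it had 45, 0, 48 and 16 reads, or 2.02, 0, 2.39 and 0.773 CPM. Each group held a library with no read and the ranges overlapped. A count of 0 allows up to 0.163 CPM in SP replicate 1 and 0.138 CPM in NSP replicate 2, at 3 reads and for counting error only. The log2 fold change was 1.05 ± 2.04 with an interval from -3.46 to 5.56 (limma-voom adjusted p = 0.733), too wide to show a direction, and it was -0.50 without NSP replicate 2.

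ABCB4 lies beside ABCB1 in the RefSeq gene order of rabbit (mOryCun1.1), between ABCB1 and CROT, and the 2 genes are close paralogs, so reads could be split between them in the authors' counting. Per 1000 ABCB1 reads there were 0, 5.29, 0.574 and 8.6 ABCB4 reads in SP and 245, 0, 293 and 107 in NSP. SP replicate 3, with the most ABCB1 reads, had fewer ABCB4 reads than SP replicates 2 and 4, and SP replicate 1 had none beside 14144 ABCB1 reads. Whether reads were split between the 2 genes was not tested. The gene nearest to ABCB4 over the 8 libraries was ANKRD55 at 0.584, a loose likeness between 2 low genes.

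ABCB6, linked to porphyrin transport, had the second highest level of the members in SP and the highest in NSP. It stood at 34.1, 50.5, 26.4 and 58.5 CPM in SP and at 93.3, 61.9, 53.1 and 96 CPM in NSP. SP replicate 4 lay above NSP replicate 3, and every other SP library lay below every NSP library. The means were 42.4 ± 14.7 and 76.1 ± 21.8 CPM, a log2 fold change of -0.88 ± 0.32 with an interval from -1.59 to -0.17. It missed the threshold with a limma-voom adjusted p of 0.0589. It passed with median-ratio (-1.01, adjusted p = 0.0415) and upper-quartile scaling (-1.07, 0.0298), which shift all genes downwards by a like amount, with quality weights (0.0233), without SP replicate 4 (0.0183) and without NSP replicate 3 (0.0432).

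ABCB6 was also set against mitochondrial content, as a description with no test. The 14 tested mitochondrial genes gave 0 calls by limma-voom, with 0 at an unadjusted p under 0.05, and 0 calls by limma-trend, but 2 higher and 1 lower with quality weights, 3 higher without SP replicate 4 and 1 lower without NSP replicate 3. Their median log2 fold change was 0.26. Per 1000 CPM of their sum, ABCB6 had 11.1, 15.3, 6.72 and 19.8 CPM in SP and 27.5, 21.7, 23.5 and 29.4 CPM in NSP. On this scale the groups did not overlap, narrowly between SP replicate 4 and NSP replicate 2. On plain CPM, 1405 of the 10012 tested genes lay lower in SP without overlap. The sum leaned on 1 gene, ATP5B, with a mean of 1449 of 3316 CPM in SP and 1220 of 2943 CPM in NSP. Whether the groups stay apart without ATP5B was not tested. The genes nearest to ABCB6 over the 8 libraries were NDUFC2 at 0.16, GCH1 at 0.207, TANGO6 at 0.208, ROMO1 at 0.213 and BLOC1S1 at 0.215. NDUFC2, a subunit of respiratory complex I, had between 16.6 and 42.7 CPM in SP and between 35.7 and 64.3 CPM in NSP.

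ABCB8, a transporter of the inner mitochondrial membrane linked to iron export, showed no called difference. It stood at 45.4, 39, 20.8 and 35.6 CPM in SP and at 39, 32.3, 63.2 and 30.1 CPM in NSP, with the ranges overlapping. SP replicate 3 was the lowest and NSP replicate 3 the highest. The log2 fold change was -0.22 ± 0.33 with an interval from -0.95 to 0.52 (limma-voom adjusted p = 0.658). The data thus allow a change of either sign within that interval. Its sign turned without SP replicate 3 (0.03), without NSP replicate 3 (0.01) and with quality weights (0.01). Among the nearest genes were GADD45A at 0.243, TRIM2 at 0.244, RHBDD2 at 0.248 and GLS2 at 0.26.

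ABCB10, an inner membrane transporter needed for heme synthesis in red cell precursors, was low in both groups. It stood at 13, 5.32, 14.8 and 8.49 CPM in SP and at 7.24, 7.39, 1.2 and 4.54 CPM in NSP. SP replicate 2 lay below NSP replicates 1 and 2, so the groups overlapped, and NSP replicate 3 rested on 24 reads. The log2 fold change was 1.19 ± 0.61 with an interval from -0.15 to 2.54 (limma-voom adjusted p = 0.164). It lay between 0.63 and 1.50 with each library left out, and passed in none of these fits. The nearest genes were ZNF697 at 0.251, RGS10 at 0.265, EXOC8 at 0.297, NSL1 at 0.332 and TRPV2 at 0.343.

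The heme and mitochondrial iron genes around these transporters moved in both directions. Of 26 listed, 16 were tested, of which 3 rose and 4 fell in SP, where all tested genes gave 17.7% and 13.0%, with a median log2 fold change of -0.35. STEAP3, an endosomal iron reductase, rose by 3.37 ± 0.82 (limma-voom adjusted p = 0.0111). SLC25A38, the mitochondrial glycine carrier of heme synthesis, rose by 1.09 ± 0.27 (adjusted p = 0.0112), from 59.5 ± 6.29 CPM in NSP to 133 ± 46.8 in SP. HMOX1, which breaks heme down, rose by 1.41 ± 0.37 (adjusted p = 0.0156), a call lost without NSP replicate 1 (0.078).

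PGRMC1, a heme-binding partner of ferrochelatase, fell by 0.89 ± 0.22 (limma-voom adjusted p = 0.0113), from 273 ± 27 CPM in NSP to 149 ± 33.6 in SP. UROD, an enzyme of porphyrin synthesis, stood at -0.86 ± 0.24 (adjusted p = 0.0225), BLVRA, which reduces biliverdin, at -1.29 ± 0.36 (0.0217), and SLC25A39, a mitochondrial glutathione carrier, at -0.79 ± 0.23 (0.0245). UROD and SLC25A39 were each lost in 4 and BLVRA in 3 of the 8 fits without 1 library, with adjusted p up to 0.0759, 0.0686 and 0.0616. The count of falling genes was 1 without SP replicate 2 or NSP replicate 4, 2 without SP replicate 3 or NSP replicate 2, and 7 without SP replicate 4. FECH, the ferrochelatase that inserts iron into heme, had a log2 fold change of -0.64 and missed the threshold (adjusted p = 0.0954). ALAS1, the first enzyme of the pathway, had 0.35 (adjusted p = 0.336).

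**Figure D5:**
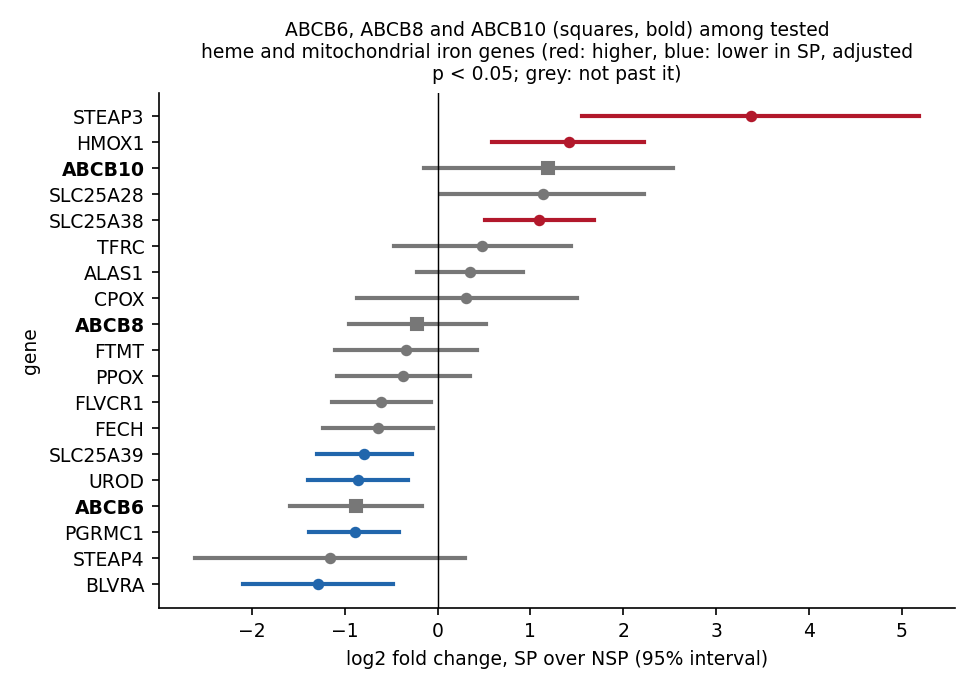
Log2 fold change, SP over NSP, with its 95% interval for the 16 tested heme and mitochondrial iron genes (circles) and for ABCB6, ABCB8 and ABCB10 (squares), in red where higher and in blue where lower past the threshold. ABCB6 at -0.88 lies beside UROD at -0.86 and PGRMC1 at -0.89, and the interval of ABCB10 includes 0.

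Iron-sulfur cluster assembly, the other use of mitochondrial iron, had 12 tested genes of 20 listed. By limma-voom 2 (16.7%) fell and 0 rose, near the 13.0% and below the 17.7% of all tested genes. At an unadjusted p under 0.05, 2 were higher. Limma-trend gave the same counts, while quality weights gave 1 higher. With 1 library left out, between 1 and 2 fell and between 0 and 1 rose. BOLA3, which helps to pass clusters to target proteins, fell by 1.16 ± 0.28 (limma-voom adjusted p = 0.0113). NUBPL, an assembly factor of complex I, stood at -1.53 ± 0.49 (adjusted p = 0.0363), a call lost in 5 of the 8 fits without 1 library. The median log2 fold change of the list was 0.15, close to that of all tested genes.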

How the data were processed

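The authors deposited 1 fixed-width table of 163 fields of 8 characters in 6 stacked blocks, read here by character position. The values used are whole numbers taken as exon read counts per gene and library, since the deposited group means were recomputed from them within 0.05; the header text is cut at 8 characters and does not name the measure. Exon lengths were inferred from the values as well. The aligner, build and gene models: not given in the sources used here. Per the file headers, an EDGE test made the deposited fold and p-value fields. Another 143 fields of single libraries were left unused. Names of 8 characters were used where they matched exactly 1 RefSeq symbol, and 10020 entries without a usable name (10.3% of reads) stayed in totals and tests.

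Counts were scaled by TMM (trims of 30% and 5%) and kept where 4 libraries reached 0.508 CPM, which is 10 reads at the median depth, and all libraries together 15 reads. They were tested with limma-voom (limma 3.58.1, R 4.3.3, offset 0.5) on group only, two-sided, with Benjamini-Hochberg adjustment. The procedure was tested on simulated data with few changed genes, balanced in direction, and the same spread for all genes. These settings are simpler than the data, where many more genes were called. Tables were read with pandas 2.3.3 and NumPy 2.4.6 under Python 3.11.15, and plots were drawn with matplotlib 3.10.9. The members and the 16 gene lists were chosen with earlier results of these data known. Genes named are the members, ABC transporters past the threshold, 18 fixed markers, up to 4 genes per direction of 4 pathway lists, and the 5 genes nearest in profile to each member, of which 1 is not reported here; TAP2, RDX, FECH, ALAS1, NR1I2, the leading ABC genes of NSP and the barrier endothelium genes were named after their values were seen. Replicate libraries of a group differed by more than counting noise, so none was taken as a duplicate. Alternatives are in the closing section.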

Additional observations from a re-analysis of the deposited data

How the results depend on the processing

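Alternatives were median-ratio and upper-quartile scaling, a lower limit of 1 read, a limit of 10 reads in 4 libraries, limma-trend, quality weights and each library left out in turn. ABCB1 stayed called and higher in SP, and ABCB10 higher and uncalled, under all of them. For ABCB6 the log2 fold change, uncalled at -0.88, was called at -1.01 with median-ratio scaling, at -1.07 with upper-quartile scaling and at -1.01 with quality weights, and lay between -1.21 and -0.67 with 1 library left out. For ABCB8 it was 0.01 with quality weights and between -0.41 and 0.03 with 1 library left out. For ABCB4 it lay between -0.50 and 2.88 with 1 library left out. Among genes named for their likeness, MRAP2 turned to 0.14 with limma-trend and 0.22 with quality weights and lay between -1.90 and 0.92 with 1 library left out, GLS2 lay between -1.36 and 0.43 with 1 library left out, and TRIM2 was 0.05 with quality weights and lay between -0.32 and 0.07 with 1 library left out. The genes higher in SP numbered between 1168 and 1953 with 1 library left out, and the ABC transporters lower in SP numbered 5 with upper-quartile scaling, 5 with quality weights and between 3 and 7 with 1 library left out. The causes were not tested. The median profile differences of ABCB1 to the endothelial, T and NK and melanocyte lists over the SP libraries were the same to 3 digits under both other scalings. No paired analysis was possible because the columns carry no replicate number. The edgeR quasi-likelihood and DESeq2 tests were planned only if the values could be named and passed as count columns; the fields touch and were entered under another unit, and these tests were not run. The interval of ABCB4 was too wide to show a change of several fold.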
